A study of Homo sapiens with 8 samples.

Results

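Mitochondrial fusion and fission genes were examined as a group of 10 genes out of 61806 in the table. They were selected by gene symbol and comprise the fusion GTPases MFN1, MFN2 and OPA1, the fission GTPase DRP1 (gene DNM1L) with its outer membrane receptors FIS1, MFF, MIEF1 and MIEF2, and the fission-associated genes MTFP1 and MTFR1. Every member was found once in the table and all 10 had enough counts to be tested. RNA came from N/TERT-1 cells, an immortalized line of human epidermal keratinocytes of wildtype genotype, so all values describe 1 cell line. In 4 libraries the cells had received ethanol, the solvent, and in the other 4 O/A, a mixture of oligomycin, which blocks the mitochondrial ATP synthase, and antimycin A, which blocks respiratory complex III. Treatment lasted 4 hours, and the 4 libraries per condition came from independent experiments. No dose is given in the labels of these libraries.

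Mitochondria form a network that is remodelled by membrane fusion and fission. Mitofusins (MFN1 and MFN2) join outer membranes and OPA1 joins inner membranes. Fission requires DRP1, a cytosolic dynamin that is recruited by receptors on the outer membrane, where it assembles into constricting rings. When mitochondria lose their membrane potential, OPA1 is cleaved by the protease OMA1 and the network fragments, and small mitochondria are more readily taken up by mitophagy. These steps act on proteins, whereas only transcript levels were measured here.

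Between 17210404 and 20999927 fragments were counted per library. Ethanol replicate 4 had the most, and 24175 genes were detected in it, against 23270 to 23453 in the other ethanol libraries. The 5 keratinocyte markers checked (KRT5, KRT14, TP63, ITGA6 and COL17A1) were present at 23.80 to 1494.52 FPKM in every library. Of the 14 markers of fibroblasts, melanocytes, leukocytes and endothelium, COL1A1 reached 2.94 FPKM, all others stayed at or below 0.65 FPKM, and MLANA and TYR had 0 counts. TMM scaling in edgeR put the counts on a common scale, given as CPM. FPKM, which also divides by exonic length, was used to compare levels between genes. Both scales are relative to the RNA sequenced, so fewer cells and less RNA per cell cannot be told apart. A gene was called if edgeR's quasi-likelihood test gave an adjusted p-value no higher than 0.05 together with a log2(FC), O/A against ethanol, beyond 0.25 in either direction.

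MIEF1 and MIEF2, which encode the paired DRP1 receptors MiD51 and MiD49, were the members that passed both thresholds, and both were lower in O/A. The bases before 1 transcription start of each are shown because these are the members that moved together. The MIEF1 start lies within the gene as annotated, and MIEF2 has another start whose window is not shown. Sequences are those of RefSeq on GRCh38.p14 (the p14 patch release of the build used by the authors), read 5′ to 3′ on the plus strand, and end before the first exon that the GENCODE annotation places in the window. Capitals mark the GC box, GGGCGG or its complement CCGCCC.
MIEF1 (chr22:39502040-39502210): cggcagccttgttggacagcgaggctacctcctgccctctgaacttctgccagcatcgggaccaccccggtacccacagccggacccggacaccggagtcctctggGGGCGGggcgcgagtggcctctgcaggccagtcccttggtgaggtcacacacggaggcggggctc
MIEF2 (chr17:18260412-18260596): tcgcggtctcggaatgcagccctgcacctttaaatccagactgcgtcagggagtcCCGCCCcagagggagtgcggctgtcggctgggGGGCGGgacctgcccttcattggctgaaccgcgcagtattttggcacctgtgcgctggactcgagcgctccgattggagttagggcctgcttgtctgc

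RefSeq promoter windows were matched for 9 of the 10 members, in 12 windows, and MTFR1 was not matched. The 250 bases before each start were searched on both strands. The GC box, a motif added after the sequences had been read, occurs in 42.5% of 34943 such windows genome-wide. Of the 9 matched members, 7 had it in at least 1 window (MFN1, OPA1, DNM1L, FIS1, MFF, MIEF1 and MIEF2), so it does not set the MIEF genes apart. MFF and MIEF2 had more than 1 window, so the share of members is not directly comparable with the share of windows. The ETS motif CCGGAAG, found in 8.48% of all windows, lay 20 bases before the RefSeq start of MIEF1, 9 bases before that of FIS1, and at 22 and 63 bases before that of MFN1. The MIEF1 site, like its GC boxes at 70 and 51 bases, lies beyond the printed bases, which stop where GENCODE places an exon. The NRF1 motif TGCGCATGC, found in 1.29% of all windows, lay 95 bases before the start of OPA1. The letters of the ATF4/CHOP composite element TGATGNAAN (3.14% of all windows), the CRE TGACGTCA (1.63%) and the E-box CACGTG (6.32%) were in no member's window.

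MIEF1 lies on chromosome 22 from 39499432 to 39518132 (GRCh38, plus strand) and is annotated with 7555 exonic bases. It had 85.2, 86.0, 86.9 and 79.5 CPM in ethanol replicates 1 to 4 and 66.7, 64.0, 66.7 and 64.5 CPM in O/A replicates 1 to 4. Every O/A library lay below every ethanol library. MIEF1 fell by 22.3% (log2(FC) -0.36, standard error 0.038, adjusted p = 6.45e-12). An exact permutation test of the 4 O/A against the 4 ethanol libraries gave p = 0.0286, the smallest value that this number of libraries allows. A short coding gene on the same strand, MIURF, overlaps 213 exonic bases of MIEF1 and was listed at 0 counts in all libraries. How the counting treated fragments shared by both genes is not stated.

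MIEF2 lies on chromosome 17 from 18260597 to 18266552 on the plus strand, with 3906 exonic bases. It had 11.9, 12.0, 11.6 and 12.1 CPM with ethanol and 9.4, 9.1, 9.6 and 10.2 CPM with O/A, in replicate order. The groups did not overlap. MIEF2 fell by 19.7% (log2(FC) -0.32, standard error 0.084, adjusted p = 0.00117). With 163 to 258 counts per library its fold change was less precise than that of MIEF1, and the 95% confidence interval reached from -0.48 to -0.15. Both calls were kept in all 16 alternative fits, with a log2(FC) from -0.41 to -0.34 for MIEF1 and from -0.35 to -0.26 for MIEF2, but neither gene passed a fold change threshold of 0.5.

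These 2 called genes are 20% of the members, against 34.7% of all 14893 genes tested. Among all genes, 18.9% were called lower and 15.8% higher. None of the 10 members was called higher. An adjusted p-value of at most 0.05 without regard to the fold change was found for 5 members and for 53.7% of all genes. The groups of TMM-scaled values did not overlap for 6 members and for 47.6% of all genes. The median log2(FC) of the members was 0.03, close to that of all genes tested (-0.00).

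**Figure D1:**
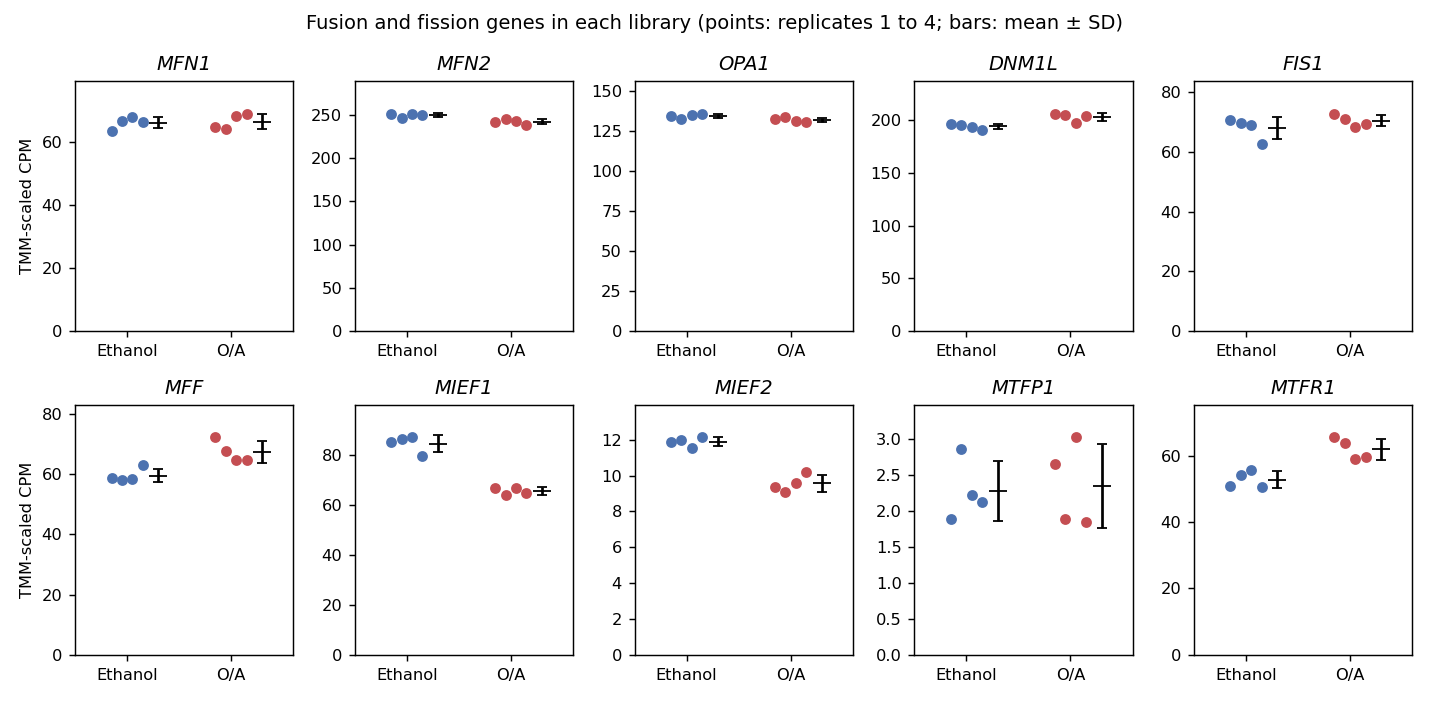
TMM-scaled CPM (y axes, each from 0) of the 10 genes in the 4 ethanol (blue) and 4 O/A (red) libraries, with the mean and SD of each group in black. MIEF1 drops from 79.5 to 86.9 CPM in ethanol to 64.0 to 66.7 in O/A and MIEF2 from 11.6 to 12.1 to 9.1 to 10.2. MTFR1 (50.5 to 55.6 in ethanol, 59.0 to 65.5 in O/A) and MFF (58.0 to 62.9 and 64.7 to 72.1) are higher in O/A but were not called. The remaining panels differ less.

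MFF and FIS1 did not share the fall of the MiD genes. MFF, a tail-anchored receptor that gathers DRP1 at fission sites, had 58.7, 58.0, 58.4 and 62.9 CPM in ethanol and 72.1, 67.6, 64.7 and 64.7 CPM in O/A. All O/A libraries of MFF were above the ethanol libraries, but its log2(FC) of 0.18 (standard error 0.041, adjusted p = 0.000297) stayed within the fold change threshold. An opposite-strand transcript, MFF-DT, overlaps 507 exonic bases of MFF and held 9 to 19 counts per library, beside 1025 to 1337 counts for MFF. FIS1, a small tail-anchored protein of the outer membrane, had 62.6 to 70.7 CPM in ethanol and 68.3 to 72.7 CPM in O/A, and the groups overlapped. Its log2(FC) was 0.05 (adjusted p = 0.267), with a 95% confidence interval from -0.03 to 0.13, which lies within the fold change threshold on both sides. It was 0.02 without ethanol replicate 4 or with upper-quartile scaling and 0.0075 on log2(FPKM + 0.1).

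DNM1L, the gene of DRP1 itself, had 196.1, 195.4, 193.0 and 191.0 CPM in ethanol and 206.0, 205.1, 197.0 and 203.8 CPM in O/A. Its log2(FC) was 0.07 (adjusted p = 0.0399), with an interval from 0.01 to 0.12. The adjusted p-value depended on the scaling and was 0.324 with upper-quartile scaling. It was 0.152 without a filter on low counts, 0.541 on log2(FPKM + 0.1), and 0.0544, 0.0604 and 0.0659 without ethanol replicate 4, O/A replicate 1 and O/A replicate 4.

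The make-up of the receptor transcripts was compared as each gene's share of their summed FPKM, which restates the differences above on a relative scale. The summed FPKM of FIS1, MFF, MIEF1 and MIEF2 was 62.7 ± 2.09 in ethanol and 60.3 ± 1.65 in O/A (SD, n = 4 libraries each). Of this sum MIEF1 made up 18.1% ± 0.288 in ethanol and 14.1% ± 0.420 in O/A (SD, n = 4). MIEF2 made up 4.93% ± 0.248 in ethanol and 4.00% ± 0.261 in O/A. FIS1 went from 61.3% ± 1.29 to 64.0% ± 0.387 and MFF from 15.7% ± 1.14 to 17.8% ± 0.464. For each of the 4 shares the groups did not overlap (exact permutation test, two-sided, p = 0.0286 for each, also after adjustment over the 4 shares). The shares add up to a fixed total, so these 4 tests are not independent of each other. Their sizes also depend on dividing by exonic length. On CPM not divided by length the MIEF1 share fell by more (-6.93 percentage points) and the MFF share rose by more (5.01). The share of FIS1 was higher in O/A although its own mean level was 38.4 FPKM with ethanol and 38.6 with O/A, while the sum held less MIEF1 and MIEF2. For MFF the separation was narrow, since ethanol replicate 4 had 17.38% and the lowest O/A library 17.42%, and leaving out any 1 of the O/A libraries gave an adjusted p of 0.0571 (exact permutation test).

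**Figure D2:**
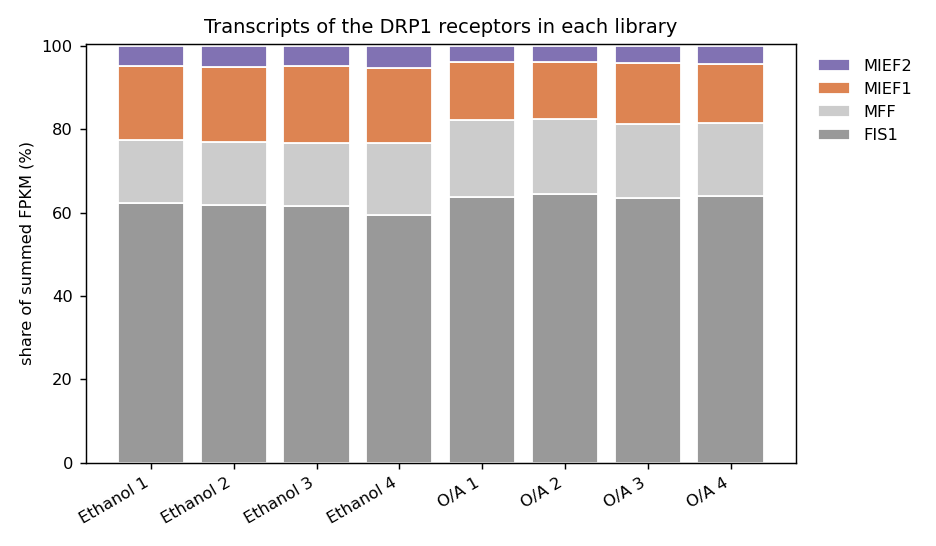
Share (%) of each DRP1 receptor gene in the summed FPKM of FIS1, MFF, MIEF1 and MIEF2, as stacked bars for the 8 libraries. MIEF1 (orange) takes 17.8% to 18.4% with ethanol and 13.8% to 14.7% with O/A, and the FIS1 and MFF segments are correspondingly larger in O/A.

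The 3 fusion GTPases were not called. MFN2, which also tethers mitochondria to the endoplasmic reticulum, had 251.1, 246.3, 250.6 and 249.3 CPM in ethanol and 242.0, 244.6, 242.7 and 237.7 CPM in O/A. The MFN2 groups did not overlap, yet the difference was only 3.02% of the level (log2(FC) -0.04, 95% confidence interval -0.10 to 0.01, adjusted p = 0.157). The adjusted p-value was 0.0112 with upper-quartile scaling and 0.00832 on log2(FPKM + 0.1). MFN1, the other mitofusin, had 63.4 to 67.7 CPM in ethanol and 63.9 to 68.8 CPM in O/A, which overlapped almost entirely. Its log2(FC) was 0.01 (interval -0.07 to 0.09, adjusted p = 0.883) and changed sign with the scaling. OPA1 had 132.6 to 135.8 CPM in ethanol and 130.7 to 133.5 CPM in O/A, with a log2(FC) of -0.03 (interval -0.09 to 0.03, adjusted p = 0.456). On log2(FPKM + 0.1), which uses library totals in place of TMM, the adjusted p-value of OPA1 was 0.0378 at a log2(FC) of -0.07. All 3 intervals lay within the fold change threshold.

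MTFR1, a regulator whose increase promotes fission, was the member nearest to a call from the other side. It had 50.7, 54.1, 55.6 and 50.5 CPM in ethanol and 65.5, 63.7, 59.0 and 59.7 CPM in O/A, and every O/A library was above every ethanol library. Its log2(FC) of 0.23 (standard error 0.043, adjusted p = 7.32e-06) fell just short of 0.25. Without ethanol replicate 2, ethanol replicate 3, O/A replicate 3 or O/A replicate 4 it was 0.25, 0.27, 0.26 and 0.25 and passed. PDE7A on the opposite strand shares 116 exonic bases with MTFR1 and held 529 to 682 counts, and whether the counting used strand is not stated.

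MTFP1, an inner membrane protein needed for fission, was too low to be measured well. It had 32 to 57 counts per library, 1.9, 2.9, 2.2 and 2.1 CPM in ethanol and 2.6, 1.9, 3.0 and 1.8 CPM in O/A. The groups overlapped and the log2(FC) was 0.06 (95% confidence interval -0.32 to 0.43, adjusted p = 0.826), so a change as large as that of MIEF2 could not be told from none at this depth. A same-strand coding transcript that runs across the locus shares 890 of the 1604 exonic bases of MTFP1 and was listed at 0 counts, which leaves the level of MTFP1 uncertain.

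**Figure D3:**
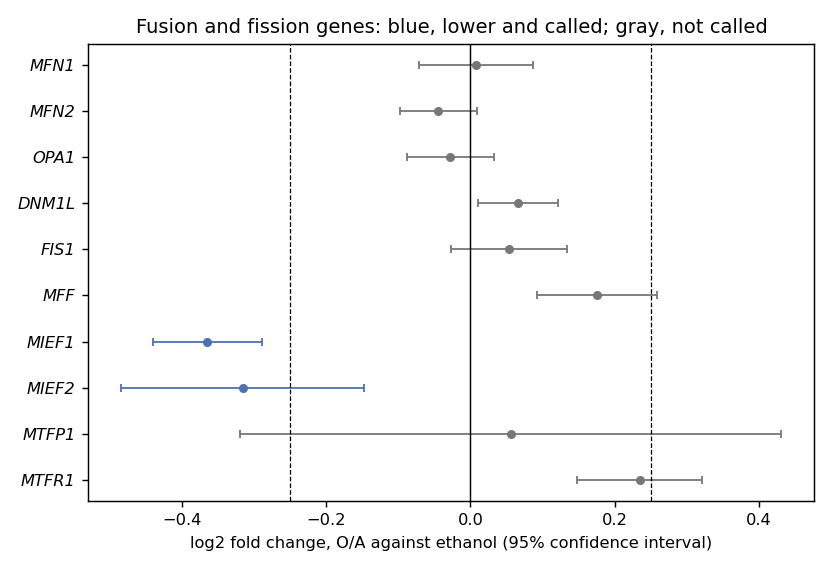
Log2 fold change of O/A against ethanol (x axis) with 95% confidence intervals for the 10 genes, with dashed lines at -0.25 and 0.25. MIEF1 (-0.36) and MIEF2 (-0.32) lie beyond the lower line, MTFR1 (0.23) just inside the upper one, and MTFP1 has the widest interval (-0.32 to 0.43).

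Per length, FIS1 was the highest of the 10 genes in ethanol, at 38.4 ± 2.06 FPKM (SD, n = 4 libraries). MFN2 (24.7 ± 0.237) and DNM1L (24.5 ± 0.282) followed and did not differ beyond their spread. OPA1 stood alone at 15.1 ± 0.171. MTFR1 (11.6 ± 0.596), MIEF1 (11.3 ± 0.469) and MFN1 (11.3 ± 0.353) overlapped, MFF was below them at 9.81 ± 0.364, MIEF2 had 3.09 ± 0.0585 and MTFP1 1.44 ± 0.265 FPKM. In O/A the order changed in the middle. MIEF1, at 8.52 ± 0.174 FPKM, fell below MFN1 (10.97 ± 0.384) and MFF (10.8 ± 0.574), and its range overlapped neither. MIEF2 was at 2.41 ± 0.111 FPKM. DNM1L (24.8 ± 0.537) stood above MFN2 (23.2 ± 0.317), without overlap. This order rests on the annotated exonic lengths, for example 1791 bases for FIS1 and 10234 for MFN2. The SD covers only the spread between libraries, not the uncertainty of these lengths. By TMM-scaled CPM, which is not divided by length, FIS1 was below MFN2, DNM1L and OPA1 in both conditions.

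Related genes were compared by their FPKM ratio within each library, which does not depend on the library total. The log2 ratio of MIEF1 to MIEF2 was 1.88 ± 0.084 in ethanol and 1.82 ± 0.077 in O/A (SD, n = 4), with overlapping libraries (exact permutation test, p = 0.371, adjusted over 3 ratios 0.371). The difference of -0.05 between conditions rested on single libraries. It was -0.09 without ethanol replicate 4, where the conditions no longer overlapped (adjusted p = 0.0857, exact permutation test), and -0.01 without O/A replicate 4. The log2 ratio of MFN1 to MFN2 was -1.13 ± 0.046 in ethanol and -1.08 ± 0.067 in O/A (p = 0.257, adjusted 0.371, exact permutation test). The third ratio was that of MTFR1 to its relative MTFR1L. It was 1.06 ± 0.104 in ethanol and 1.61 ± 0.025 in O/A and did not overlap between conditions. Its exact permutation p of 0.0286, the smallest possible, became 0.0857 after adjustment over 3 ratios, a number of libraries at which a single separated ratio cannot pass. MTFR1L itself fell (log2(FC) -0.32, adjusted p = 2.39e-06), with 5.54 ± 0.2504 FPKM in ethanol and 4.31 ± 0.241 in O/A.

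The other genes of mitochondrial dynamics were taken from 5 lists of 51 genes in all, each of which was tested. Their levels are given in FPKM, whereas log2(FC) comes from the TMM-scaled counts, so it differs somewhat from the ratio of the FPKM means. Of these genes, 6 were called higher and 6 lower, and their median log2(FC) was -0.02. Of all genes tested 34.7% were called, 15.8% higher and 18.9% lower, and the counts of each list below stand against these shares.

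Among 8 genes for OPA1 processing and inner membrane scaffolds, 1 was called, and the median log2(FC) was -0.03. OMA1, the protease that cleaves OPA1 on loss of membrane potential, fell (log2(FC) -0.55, standard error 0.073, adjusted p = 6.75e-09). Its level was 5.43 to 6.11 FPKM with ethanol, against 3.10 to 4.07 FPKM with O/A. The protease that cleaves OPA1 under basal conditions, YME1L1, was looked up after its value had been seen. It had a log2(FC) of 0.17 (adjusted p = 3.63e-07), within the fold change threshold.

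Among 9 genes for outer membrane fusion aids and mitofusin turnover, 1 was called. MARCHF5, an outer membrane ubiquitin ligase that acts on mitofusins and fission proteins, rose (log2(FC) 0.33, adjusted p = 4.60e-11). Its level was 15.55 to 16.75 FPKM with ethanol, against 18.91 to 20.33 FPKM with O/A.

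Among 15 other fission and DRP1 cofactors, 2 were called higher and 4 lower, at a median log2(FC) of -0.02. Of all genes tested, 15.8% were called higher and 18.9% lower. SENP5, a protease that removes SUMO from DRP1, rose from 5.71 ± 0.151 to 8.06 ± 0.219 FPKM (log2(FC) 0.54, adjusted p = 1.27e-15). TBC1D15, a Rab GTPase-activating protein that binds FIS1, rose from 3.67 ± 0.259 to 4.78 ± 0.123 FPKM (log2(FC) 0.43, adjusted p = 4.73e-10). MTFR2, a further relative of MTFR1, fell from 5.03 ± 0.326 to 2.79 ± 0.165 FPKM (log2(FC) -0.81, adjusted p = 9.12e-11). AKAP1, which anchors protein kinase A on the outer membrane near DRP1, fell from 14.0 ± 0.420 to 8.56 ± 0.379 FPKM (log2(FC) -0.66, adjusted p = 1.49e-19). INF2, a formin that assembles actin where the endoplasmic reticulum meets mitochondria, fell from 5.41 ± 0.158 to 3.99 ± 0.102 FPKM (log2(FC) -0.39, adjusted p = 2.02e-12). The fourth lower gene was MTFR1L. TMM-scaled values of the conditions did not overlap for 11 of the 15 genes, called or not, and for 47.6% of all genes tested.

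Among 7 genes of mitochondrial transport and positioning, KIF5B, a kinesin heavy chain, rose (log2(FC) 0.30, adjusted p = 4.39e-15) and CLUH, an RNA-binding protein whose loss makes mitochondria cluster, fell (log2(FC) -0.41, adjusted p = 9.90e-15). The remaining 5 were not called, and the median of the list was -0.03. Among 12 genes of the MICOS complex and its outer membrane partners, MTX3, a metaxin, rose from 7.14 ± 0.519 to 10.02 ± 0.226 FPKM (log2(FC) 0.53, adjusted p = 2.92e-15) and APOOL, a MICOS subunit, rose from 4.65 ± 0.218 to 5.65 ± 0.373 FPKM (log2(FC) 0.33, adjusted p = 7.56e-07). The other 10, the core subunit IMMT among them, were not called, and the median was 0.01.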

How the data were processed

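Raw counts per gene were deposited for 8 libraries. The authors made them from paired-end poly(A) reads aligned to GRCh38.p13 with HISAT2 2.0.1 and counted with HTSeq 0.6.1. Strand setting and overlap mode are not given in the sources used here. The authors also deposited FPKM, and recomputing it from count, exonic length and library total gave every value to within 0.005. The authors' table of DESeq2 fold changes and p-values was not used.

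Groups were taken from the sample titles. A gene was tested if 4 or more libraries held 10 or more counts (14893 genes), in R 4.3.3 with edgeR 4.0.16 (TMM scaling, robust quasi-likelihood test, Benjamini-Hochberg adjustment over all genes tested). TMM factors were 1.0115 to 1.0216 in ethanol and 0.9821 to 0.9879 in O/A. The 95% intervals use the standard error and degrees of freedom of that test. Ratios and shares were compared by exact two-sided permutation tests, on FPKM and, as an alternative, on CPM not divided by length. The members and lists were chosen with earlier results of these data known. Beyond the members, the genes named are the called genes of each list, up to 3 in each direction. MTFR1L, YME1L1 and IMMT fall outside this rule and were chosen after their values were seen. On simulated data with 14893 genes edgeR recovered 74 of 100 genes changed by 0.5 on the log2 scale and 92 of 100 changed by 1, with 9 false calls. Only these genes were changed, no smaller change was simulated, and recovery was counted by the adjusted p-value alone. In the real data 53.7% of genes passed that threshold, so the simulated rates need not carry over.

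Alternatives were DESeq2 1.42.0, median-ratio and upper-quartile scaling, dropping the filter, requiring a mean FPKM of 1, limma 3.58.1 on log2(FPKM + 0.1) and log2(FPKM + 1), a replicate block, each library left out, and other fold change thresholds. Library totals of 17210404 to 20999927 limit the precision for genes with few counts.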

Additional observations from a re-analysis of the deposited data

Results flagged for a closer look

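A single library was separated from the rest of its group in 3 of the 62 gene or share groups checked, and about 1 in 20, or 3.1, would be so by chance. MFF in ethanol replicate 4 had 62.9 TMM-scaled CPM, against 58.0 to 58.7 in the other ethanol libraries. In the same library MFF made up 17.38% of the summed FPKM of the DRP1 receptors, against 15.1% to 15.2% in the others. AKAP1 in ethanol replicate 1 had 70.5 TMM-scaled CPM, against 74.2 to 74.7 in the other ethanol libraries.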

How the results depend on the processing

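MIEF1 and MIEF2 were called lower in all 16 alternative fits, and the number of members called stayed at 2, except that it was 3 in the 4 fits without 1 library in which MTFR1 passed. With other thresholds, a setting chosen after seeing the data, 5 members were called without a fold change threshold and 0 at an absolute log2(FC) above 0.5, which ended both MIEF calls. Across all genes the count of 5165 became 7999 without a fold change threshold and 2636 at an absolute log2(FC) above 0.5, and in the 5 lists the count of 12 became 26 and 5. In the 16 alternative fits the count in the lists was 12 to 15. The log2(FC) of MFN1 turned to -0.025 with upper-quartile scaling, to -0.037 on log2(FPKM + 0.1) and to -0.035 with a pseudocount of 1, and ranged from -0.0079 to 0.036 with 1 library left out. That of MTFP1 turned to -0.013 and -0.0049 on these FPKM scales and ranged from -0.088 to 0.19 with 1 library left out. The causes were not tested. APOOL fell within the threshold on log2(FPKM + 1), at 0.23. With 1 library left out, the difference in the MFF share ranged from 1.94 to 2.72 percentage points. On CPM not divided by length the share differences were 2.75 for FIS1, 5.01 for MFF, -6.93 for MIEF1 and -0.819 percentage points for MIEF2. Each had an adjusted p of 0.0286 (exact permutation test).

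Libraries that share a replicate number did not deviate together (correlations 0.044, -0.0032, -0.028 and 0.074), and 2 of 4 ethanol and 1 of 4 O/A libraries correlated best with their own number. With the replicate block 5160 genes were called and no call of a gene named in the text changed. For the receptor shares the differences with the replicate block were 2.73 for FIS1, 2.15 for MFF, -3.94 for MIEF1 and -0.935 percentage points for MIEF2, each at p = 0.125 (exact sign-flip permutation), the smallest that 4 pairs allow. Among the 10 members, MTFP1 had the fewest counts and the widest interval.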
